A study of Mus musculus with 18 samples.

Results

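Solute carriers, the membrane proteins of the Slc gene families, were followed in the kidneys of young CD1 mice, an outbred laboratory stock, kept under lowered oxygen. The genes were the array's Slc genes outside the Slc25 family of mitochondrial carriers and outside Slc4a1, the anion exchanger of red cells. Of 16128 probes, 109 carried a single such symbol and covered 93 genes. Genes measured on fewer than 9 of the 18 arrays, 14 in number, were left out, which kept 79 genes. Of these 79 genes, 54 had the value on at least 15 arrays and in every group that the test required, out of 5843 features tested in all. The other 25 genes are given by their values only. By family, 52 of the 79 encode proteins of the plasma membrane and 27 encode proteins of internal membranes or proteins that are not carriers, so the set is wider than plasma membrane transport. One member, Slc9a3r1, encodes a scaffold protein that was once named with a carrier.

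Pups entered their condition on postnatal day 2 and stayed there for 1, 2 or 4 weeks. Constant hypoxia was air held at 11% oxygen, intermittent hypoxia was air switched between 21% and 11% oxygen every 4 min, and normoxia was room air, which served as the control. All groups were CD1 mice, and no genetic change or drug is named in the labels. With 3 conditions and 3 durations there were 9 groups, each hybridised to 2 two-colour cDNA arrays called A and B. On every array kidney cDNA of a male mouse, labelled with Cy5, was set against kidney cDNA of a female mouse of the same group, labelled with Cy3. The dyes were never swapped. The value is the deposited log2 ratio of both channels, here expressed relative to the median of its array. A response that both animals of an array shared cancels in that ratio, so the comparisons show where the ratio between the animals changed and not whether a transcript rose or fell with oxygen. No label or header at hand states which channel is the numerator, so positive and negative are signs of the deposited value and name no sex. A bias of 1 dye for a given probe is part of every ratio, and its part in the results was not tested.

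The kidney reabsorbs most of the filtered solute through carriers of tubule cells, which work as uniporters, as exchangers or together with sodium. Glucose, amino acid, phosphate, organic anion and carnitine carriers sit mainly in the proximal tubule, and calcium and salt carriers follow along the distal nephron. Low oxygen is known to raise the glucose carrier Slc2a1 and the lactate exporter Slc16a3 through hypoxia-inducible factors, which bind promoters and enhancers at a short core sequence.

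The constant hypoxia arrays were deposited on a footing of their own. Their subtracted medians ran from -1.15 to -0.19, against -0.0934 to 0.0148 under intermittent hypoxia and -0.13 to 0.092 under normoxia. A value was present for 81.8% to 88.8% of probes on the constant hypoxia arrays, for 42.9% to 65.7% under intermittent hypoxia and for 41.01% to 67.9% under normoxia. Constant hypoxia and the footing of its arrays cannot be told apart. On 2 arrays another label went against the title. For intermittent hypoxia 2 weeks A the name of the female sample points to 1 week, and for constant hypoxia 4 weeks A the treatment described for 1 channel lasted 2 weeks. The counts of passing carriers are given with and without these arrays where they moved, and values without constant hypoxia 4 weeks A are given for the carriers it moved most. All counts from runs that left out arrays or changed the processing stand without the share of all features in the same run. They show how far a count moved and are no result particular to carriers. Constant hypoxia 4 weeks A also stood apart in spread, with an SD over the features tested of 0.85, against 0.23 to 0.42 on the other 5 constant hypoxia arrays, and intermittent hypoxia 2 weeks B came next with 0.69.

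The spread of the carriers lay near that of all features, and the difference was not tested. The SD of a gene over arrays had a median of 0.325 among the 54 tested carriers and of 0.312 among all features tested. A ratio past 1 in size on at least 1 array was found for 20 of the 54 carriers, which is 37.04%, against 33.1% of all features. Arrays A and B of a group differed by a median of 0.244 for the carriers and of 0.255 for all features. The median carrier of an array lay between -0.0890 and 0.178, both reached on arrays of 2 weeks.

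**Figure D1:**
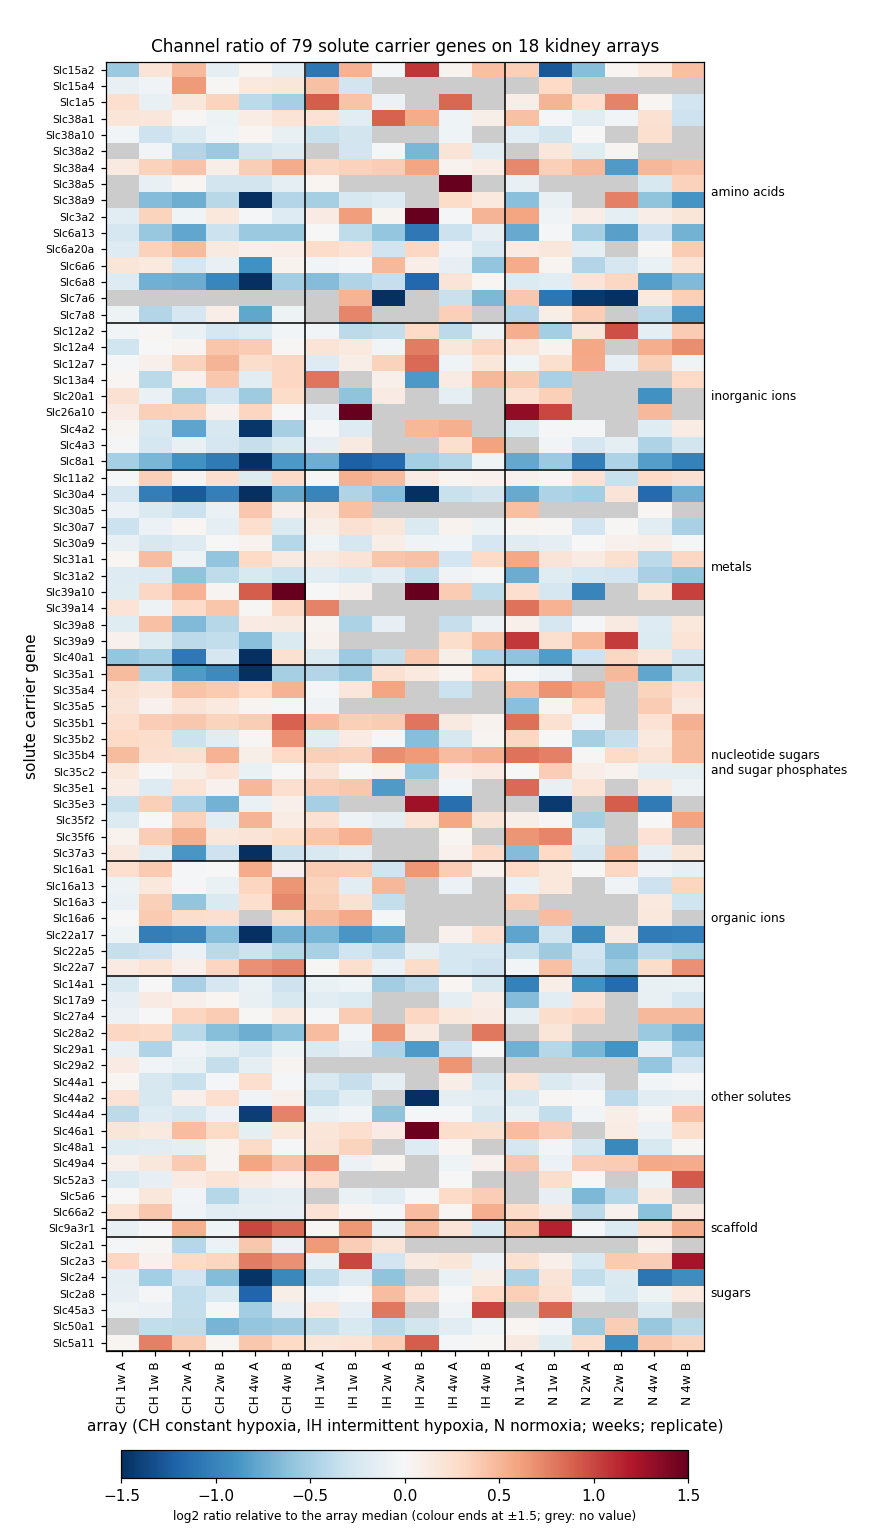
Log2 channel ratio relative to the array median (colour) of the 79 solute carrier genes, grouped by substrate class down the page, on the 18 arrays from constant hypoxia through intermittent hypoxia to normoxia. Slc8a1 is blue on every array and Slc35b4 red on every array, and the darkest blue cells gather on constant hypoxia 4 weeks A, where Slc8a1 reached -3.66.

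A small number of carriers kept 1 sign on every array, in all conditions and at all ages. Among the 31 carriers with a value on all 18 arrays, 6 did so, which is 19.4%, against 63 of 3046 features or 2.07% in the whole table. The genes are Slc8a1, the sodium/calcium exchanger that returns calcium to the blood in the distal nephron, Slc6a13, a carrier of the inhibitory transmitter GABA that is found in kidney and liver, and Slc29a1, an equilibrative carrier of adenosine and other nucleosides. They also include Slc22a5, which reabsorbs carnitine with sodium, Slc31a2, a copper transporter family member of endosomes and lysosomes, and Slc35b4, a carrier of nucleotide sugars of the secretory pathway. The first 5 were negative and Slc35b4 was positive. Constancy of sign over arrays is a description here, since all arrays share the same dye orientation.

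Slc8a1 gave a lowest, median and highest ratio of -3.66, -0.88 and -0.50 in constant hypoxia, of -1.22, -0.62 and -0.067 in intermittent hypoxia and of -1.04, -0.80 and -0.46 in normoxia. The lowest value came from constant hypoxia 4 weeks A, and the other 5 constant hypoxia arrays ended at -1.06. The 3 conditions overlapped. Slc6a13 ran from -0.78 through a median of -0.55 to -0.26 in constant hypoxia, from -1.08 through -0.35 to -0.0061 in intermittent hypoxia and from -0.81 through -0.61 to -0.015 in normoxia. Every condition thus held arrays well below 0, and in both intermittent hypoxia and normoxia 1 array lay almost at the median.

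The carnitine carrier Slc22a5 was the steadiest of the 6, with an SD of 0.13 over all 18 arrays. Its ratio averaged -0.31 ± 0.12 in constant hypoxia, -0.31 ± 0.12 in intermittent hypoxia and -0.44 ± 0.13 in normoxia (SD, n = 6 each). Slc35b4 averaged 0.31 ± 0.16 in constant hypoxia, 0.51 ± 0.14 in intermittent hypoxia and 0.43 ± 0.31 in normoxia (SD, n = 6 each). These genes were the 2 carriers whose mean ratio passed the test against 0 in all 3 conditions. Without constant hypoxia 4 weeks A neither passed in constant hypoxia, with an adjusted p of 0.0679 for Slc22a5 and 0.0548 for Slc35b4. Slc31a2 averaged -0.32 ± 0.15 in constant hypoxia, -0.17 ± 0.13 in intermittent hypoxia and -0.42 ± 0.22 in normoxia, and Slc29a1 averaged -0.18 ± 0.15 in constant hypoxia, -0.33 ± 0.30 in intermittent hypoxia and -0.56 ± 0.27 in normoxia (SD, n = 6 each). For all 4 genes the arrays of the conditions overlapped.

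**Figure D2:**
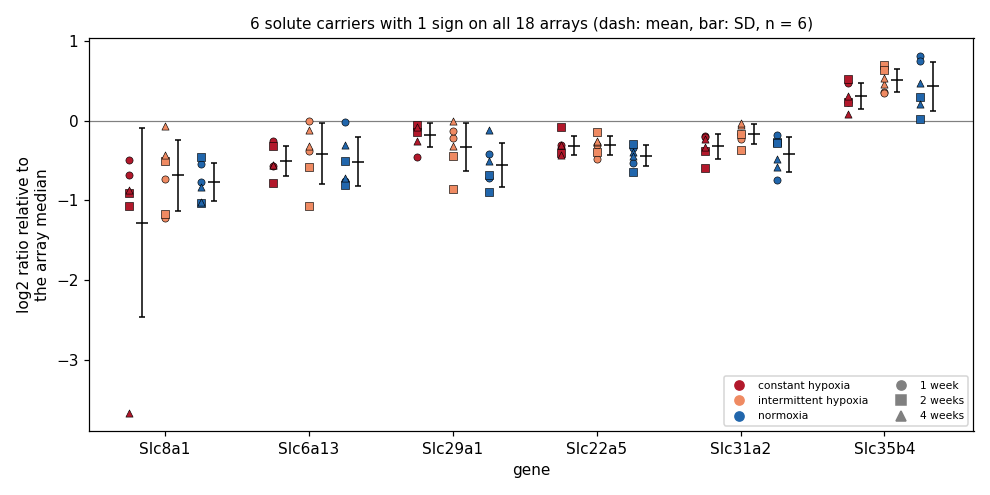
Log2 ratio relative to the array median of the 6 carriers with 1 sign on all 18 arrays, by condition (colour) and duration (marker), with the mean and SD of the 6 arrays of each condition. Slc22a5 is packed between -0.64 and -0.082, while Slc8a1 has 1 constant hypoxia array of 4 weeks at -3.66.

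The promoters of 4 carriers are printed because the comparisons turn on lowered oxygen. Slc31a2 and Slc6a13 are the 2 genes of constant sign whose first listed promoter window holds ACGTG, a form of the hypoxia-inducible factor core. Slc2a1 and Slc16a3 are textbook targets of that factor. These 4 genes were chosen after the search for ACGTG, and other forms of the core were not searched. Where a gene has several starts, the first window listed for it was used. Windows were taken from RefSeq on GRCm38.p6, from 250 bases before to 50 bases after the start of the gene, all on the plus strand, with ACGTG on either strand in capitals. They lie at chr4:62286179-62286478 (Slc31a2), chr6:121300038-121300337 (Slc6a13), chr4:119108495-119108794 (Slc2a1) and chr11:120948817-120949116 (Slc16a3).
Slc31a2: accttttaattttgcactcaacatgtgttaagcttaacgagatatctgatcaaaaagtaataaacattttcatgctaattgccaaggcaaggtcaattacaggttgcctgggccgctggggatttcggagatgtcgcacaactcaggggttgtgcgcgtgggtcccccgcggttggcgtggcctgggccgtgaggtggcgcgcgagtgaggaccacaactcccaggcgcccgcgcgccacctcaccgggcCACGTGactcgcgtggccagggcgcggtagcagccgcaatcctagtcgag
Slc6a13: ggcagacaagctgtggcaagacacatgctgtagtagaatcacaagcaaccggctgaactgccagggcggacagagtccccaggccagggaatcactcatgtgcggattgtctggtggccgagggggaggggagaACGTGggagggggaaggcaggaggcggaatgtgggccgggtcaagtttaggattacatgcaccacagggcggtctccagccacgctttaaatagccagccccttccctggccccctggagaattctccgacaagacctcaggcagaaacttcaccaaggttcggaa
Slc2a1: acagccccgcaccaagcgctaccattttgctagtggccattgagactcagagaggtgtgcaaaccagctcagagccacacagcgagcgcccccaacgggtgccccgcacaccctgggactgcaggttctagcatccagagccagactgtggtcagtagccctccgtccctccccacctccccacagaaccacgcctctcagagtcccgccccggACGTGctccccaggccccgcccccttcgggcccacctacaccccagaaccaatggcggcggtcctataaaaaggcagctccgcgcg
Slc16a3: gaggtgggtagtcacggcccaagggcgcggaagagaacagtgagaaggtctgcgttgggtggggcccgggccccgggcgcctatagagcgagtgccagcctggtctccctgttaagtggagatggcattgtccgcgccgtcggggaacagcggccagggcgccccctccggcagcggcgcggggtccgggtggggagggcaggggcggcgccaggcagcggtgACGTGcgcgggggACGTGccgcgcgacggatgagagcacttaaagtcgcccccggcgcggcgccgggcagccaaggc
In Slc31a2 the matches on both strands overlap in a single palindrome. Of the 79 carriers, 60 matched a RefSeq window, and 21 of these held ACGTG, which is 35%. The share was 28.5% among 3435 genes tested on the arrays and 19.7% among the first windows of 27025 genes. A match is a description of letters and not evidence of binding.

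In constant hypoxia the carriers past the threshold lay mostly below the array median, and so did all features past it, at 698 of 960. Over all 54 tested carriers, 27 mean ratios were positive and 27 negative. The mean ratio over the 3 durations differed from 0 for 18 of 54 carriers (limma-type moderated test on 9 group means, Benjamini-Hochberg adjustment over all 5843 features, threshold 0.05), against 16.4% of all features. Of these, 13 were negative, against a background of 11.9%, and 5 were positive, against 4.48%. The negative genes came from amino acid carriers (3 of 10 tested), metal carriers (3 of 9), inorganic ion carriers (2 of 5), organic ion carriers (2 of 5), sugar carriers (2 of 5) and nucleotide sugar carriers (1 of 8). None of 11 carriers of other solutes passed. At an unadjusted p under 0.05 there were 25 of 54 carriers, against 34.3% of features, and Slc49a4, a transporter of the lysosome, was the only carrier of other solutes among them.

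The most negative were the zinc carrier Slc30a4, which loads vesicles, Slc8a1, and Slc22a17, a cell surface receptor for lipocalin 2. Slc30a4 measured -0.25 and -1.04 at 1 week, -1.26 and -1.03 at 2 weeks and -3.41 and -0.77 at 4 weeks of constant hypoxia. Its mean was -1.29 (SE 0.242, adjusted p = 0.00741 by the moderated test). All 6 arrays were negative, and A of 4 weeks lay far below the other 5. Slc22a17 showed the same layout, with -0.066 and -1.03, then -1.01 and -0.63, then -3.58 and -0.71. Its mean was -1.1705 (SE 0.266, adjusted p = 0.0138). For Slc8a1 the mean was -1.28 (SE 0.238, adjusted p = 0.0072).

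The creatine carrier Slc6a8 and the insulin-responsive glucose carrier Slc2a4 had the smallest adjusted p values. Slc6a8 measured -0.20 and -0.72 at 1 week, -0.75 and -0.98 at 2 weeks and -1.77 and -0.52 at 4 weeks of constant hypoxia, with a mean of -0.82 (SE 0.143, adjusted p = 0.00677). Slc2a4 measured -0.14 and -0.51, then -0.28 and -0.65, then -1.47 and -0.97, with a mean of -0.67 (SE 0.110, adjusted p = 0.00677). Both genes were below the array median on all 6 arrays. The rest of the negative genes were Slc38a9 (-0.94), a lysosomal amino acid sensor, Slc40a1 (-0.79), the iron exporter ferroportin, Slc35a1 (-0.71), which carries CMP-sialic acid into the Golgi, Slc4a2 (-0.53), a chloride/bicarbonate exchanger, Slc6a13 (-0.51), the sugar carrier Slc50a1 (-0.49), Slc31a2 (-0.32) and Slc22a5 (-0.31).

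Of the 5 positive genes, 3 belonged to the nucleotide sugar class: Slc35b1 at 0.43 (adjusted p = 0.0188), an exchanger of ATP and ADP in the endoplasmic reticulum, Slc35a4 at 0.34 (adjusted p = 0.0256), a Golgi member of the family, and Slc35b4 at 0.31 (adjusted p = 0.0272). Slc39a10, a zinc importer of the cell surface, averaged 0.53 (adjusted p = 0.0322) and Slc22a7, the organic anion carrier OAT2, averaged 0.36 (adjusted p = 0.0244). Slc22a7 was positive on all 6 arrays, with 0.13 and 0.21 at 1 week, 0.076 and 0.32 at 2 weeks and 0.68 and 0.75 at 4 weeks.

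Leaving out constant hypoxia 4 weeks A changed several of these values. Slc8a1 then stood at -0.81 (adjusted p = 0.00894), Slc30a4 at -0.85 (adjusted p = 0.0117), Slc22a17 at -0.69 (adjusted p = 0.027), Slc38a9 at -0.56 (adjusted p = 0.0332) and Slc35a1 at -0.47 (adjusted p = 0.046). With these, Slc6a8 at -0.62, Slc2a4 at -0.59, Slc6a13 at -0.51, Slc35b1 at 0.52 and Slc39a10 at 0.64 also stayed past the threshold. The other 8 genes did not. Slc40a1 came to -0.33 (adjusted p = 0.205), Slc4a2 to -0.37 (adjusted p = 0.0871), Slc22a5 to -0.33 (adjusted p = 0.0679) and Slc31a2 to -0.34 (adjusted p = 0.0669). Slc50a1 at -0.49 (adjusted p = 0.0509), Slc35a4 at 0.38 (adjusted p = 0.0509), Slc35b4 at 0.34 (adjusted p = 0.0548) and Slc22a7 at 0.37 (adjusted p = 0.0639) kept about the same size. The count of 18 fell to 10 without that array, where intermittent hypoxia had 11 and normoxia 12 carriers past the threshold, and to 12 without both arrays of conflicting labels. It was 4 without 2 weeks A, 7 without 2 weeks B, 9 without 1 week A and 0 without 1 week B, while the deposited values without centring gave 53.

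Position on the array moved with these ratios. Probes are numbered from 1, and a running median was taken on each array over each probe and the 150 probes with a value on either side. Where fewer probes had a value, this window spanned more probe numbers. The running median was then averaged over the arrays of a condition. From probe 14000 onward (a limit chosen after seeing data) its median was -0.58 in constant hypoxia, -0.11 in intermittent hypoxia and -0.15 in normoxia. Below that number it lay at 0.054, 0.049 and 0.041 in the same order. The 15 carrier probes beyond 14000 had median ratios of -0.70 in constant hypoxia, -0.18 in intermittent hypoxia and -0.16 in normoxia, against 0.058, 0.12 and 0.043 for the 79 carrier probes below it. Of the 13 genes negative in constant hypoxia, 8 had a probe in that stretch. On constant hypoxia 4 weeks A the running median beside Slc8a1 was -2.54, where Slc8a1 itself read -3.66, and beside Slc22a17 it was -2.48, where that gene read -3.58. Averaged over all 6 constant hypoxia arrays it was -0.89 beside Slc8a1 and -0.83 beside Slc22a17. Beside Slc11a2 at probe 15217 it was -2.06 on 4 weeks A and -0.43 on average. Beside Slc40a1 it was -2.38 on 4 weeks A and -0.67 on average. That array thus lay far below the average of its condition, whose level without it was not computed.

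Slc6a8 has 2 probes, which lie on either side of probe 14000. Its probe 14356 averaged -1.07 in constant hypoxia, -0.51 in intermittent hypoxia and -0.51 in normoxia. Probe 8381 averaged -0.58, -0.29 and -0.059 in that order. The running median was -0.80, -0.22 and -0.24 beside probe 14356 and -0.24, -0.062 and -0.098 beside probe 8381. Probe 14356 was lower in every condition, and the part of position in that gap was not tested. With the running median subtracted, 2 of the 18 calls in constant hypoxia stayed past the threshold: Slc30a4 at -0.55 (adjusted p = 0.0124) and Slc6a13 at -0.48 (adjusted p = 0.0141). Slc8a1 then stood at -0.38 (adjusted p = 0.116) and Slc2a4 at -0.18 (adjusted p = 0.291). Of the 13 negative genes, 5 lie below probe 14000. Beside Slc2a4 the running median in constant hypoxia was -0.49 there too, and -1.11 on 4 weeks A. It was -0.16 beside Slc22a5, -0.11 beside Slc50a1, -0.083 beside Slc31a2 and -0.026 beside Slc6a13.

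**Figure D3:**
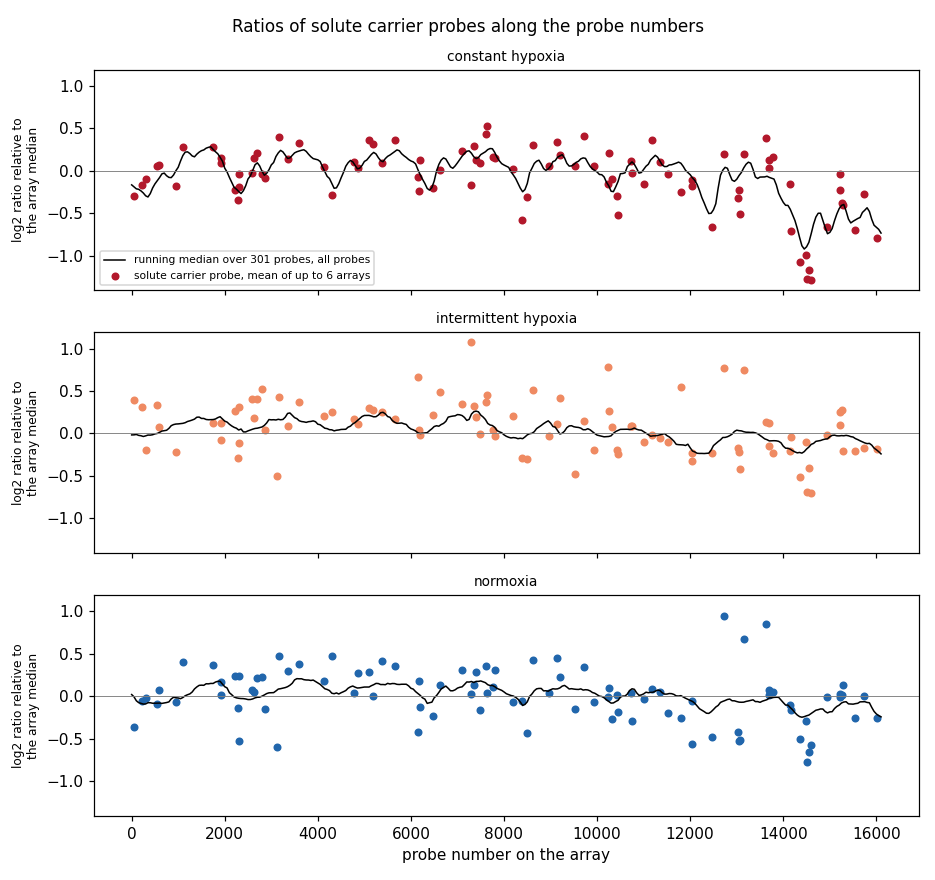
Mean log2 ratio relative to the array median of each solute carrier probe (points, up to 6 arrays) against its number on the array. Panels show constant hypoxia, intermittent hypoxia and normoxia. The line is the running median of all probes over 150 probes with a value on either side. Its window spans more probe numbers where fewer probes have a value. In constant hypoxia the line drops to -0.92 beyond probe 14000 and the carrier points drop with it. The lowest point of the line is -0.25 in both other conditions. The line is an average over arrays, and on constant hypoxia 4 weeks A alone the running median was -2.54 beside Slc38a9.

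In intermittent hypoxia 4 of 54 carriers had a mean ratio different from 0, against 5.89% of all features, with 2 positive (background 4.26%) and 2 negative (background 1.63%). Slc35b4 was positive on all 6 arrays, between 0.35 and 0.70 (mean 0.51, SE 0.085, adjusted p = 0.00697). Slc22a5 was negative on all 6, between -0.48 and -0.14 (mean -0.31, SE 0.086, adjusted p = 0.0494). Slc44a2, a choline transporter-like protein, measured -0.33 and -0.19 at 1 week, -1.58 at 2 weeks, where 1 array had a value, and -0.13 and -0.16 at 4 weeks (mean -0.66, SE 0.107, adjusted p = 0.00693). Slc39a10 measured -0.0093 and 0.063 at 1 week, 2.23 on the only array at 2 weeks, and 0.38 and -0.38 at 4 weeks (mean 0.75, SE 0.172, adjusted p = 0.0287). Both of the last results lean on intermittent hypoxia 2 weeks B, since the mean gives each duration equal weight and A had no value for either gene. The count of 4 was 1 without that array, 11 without intermittent hypoxia 2 weeks A, 8 without normoxia 2 weeks B, 11 without either array of constant hypoxia at 4 weeks, 13 without both arrays of conflicting labels and 2 without either array of 1 week or 4 weeks A of intermittent hypoxia.

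In normoxia 8 of 54 carriers passed, against 3.46% of all features, with 6 negative (background 1.49%) and 2 positive (background 1.97%). Slc29a1 had the smallest adjusted p, with -0.72 and -0.42 at 1 week, -0.69 and -0.90 at 2 weeks and -0.12 and -0.51 at 4 weeks (mean -0.56, SE 0.096, adjusted p = 0.0115). It was negative on all 6 arrays. Slc14a1, the urea carrier of red cells and vasa recta, measured -1.01 and 0.10 at 1 week, -0.91 and -1.16 at 2 weeks and -0.11 and -0.10 at 4 weeks (mean -0.53, adjusted p = 0.0284), so 3 of the 6 arrays were far below the median and 3 lay near it. Slc6a13 (-0.52, adjusted p = 0.0305), Slc2a4 (-0.48, adjusted p = 0.0326), Slc22a5 (-0.44, adjusted p = 0.0177) and Slc31a2 (-0.42, adjusted p = 0.0212) were the other negative genes. The positive ones were Slc35a4 (0.47, adjusted p = 0.0305) and Slc35b4 (0.43, adjusted p = 0.0177). Without normoxia 1 week A no carrier passed, and without 4 weeks B, 4 weeks A or 2 weeks B the count was 1, 2 or 3 in that order. It was 12 without either array of constant hypoxia at 4 weeks.

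The central question of the design is whether the ratio differed between oxygen conditions, and for the carriers no such difference passed the test. For constant hypoxia minus normoxia, 0 of 54 carriers passed (background 0.0% of features), and 6 carriers had an unadjusted p under 0.05, against 8.21% of features. For intermittent hypoxia minus normoxia, again 0 of 54 passed (background 0.0%), with 3 carriers at an unadjusted p under 0.05, against 4.6% of features. For intermittent minus constant hypoxia, 0 of 54 passed (background 0.0513%) and 8 carriers had an unadjusted p under 0.05, against 11.9%. The median SE of such a difference was 0.171 over all features. No carrier had arrays of 1 condition entirely above or below those of another, where the background ran from 0.0172% to 0.463% of features over the 6 pairings and directions. The normoxia arrays enter both differences from normoxia.

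Median differences of the 54 carriers were -0.0026 for constant hypoxia minus normoxia, 0.079 for intermittent hypoxia minus normoxia and 0.0895 for intermittent minus constant hypoxia, against -0.0346, 0.013 and 0.057 over all features. In the first comparison the inorganic ion carriers had the lowest class median, -0.35, with 4 of 5 genes below 0, namely Slc4a2, Slc8a1, the potassium/chloride cotransporter Slc12a4 and the sodium/potassium/chloride cotransporter Slc12a2. For Slc4a2 and Slc12a2 the probes averaged differ between arrays. In constant hypoxia and normoxia, Slc4a2 averaged -0.23 and -0.015 by probe 15220. By probe 15546, measured in normoxia on 1 week B alone, it was -0.70 and -0.25. Slc12a2 averaged -0.35 and -0.14 by probe 2284, and 0.15 and 0.31 by probe 7806. Slc4a2 and Slc8a1 also lie past probe 14000. The part of probes and position was not tested. Sugar carriers had a median of -0.19 and organic ion carriers of 0.13. In intermittent hypoxia minus normoxia the medians of classes with several genes lay between -0.032 for nucleotide sugar carriers and 0.22 for carriers of other solutes.

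The carriers with the smallest p values in each direction stood as follows. Slc39a10 averaged 0.53 ± 0.64 in constant hypoxia (SD, n = 6) and 0.040 ± 0.74 in normoxia (SD, n = 5), a fitted difference of 0.66 (SE 0.228, adjusted p = 0.604). Slc6a8 averaged -0.82 ± 0.53 in constant hypoxia and -0.22 ± 0.45 in normoxia (SD, n = 6 each), a difference of -0.60 (SE 0.202, adjusted p = 0.604). Slc29a1 averaged -0.18 ± 0.15 in constant hypoxia and -0.56 ± 0.27 in normoxia, a difference of 0.38 (SE 0.136, adjusted p = 0.604), and Slc35a1 differed by -0.65 (SE 0.241, adjusted p = 0.604). Without constant hypoxia 4 weeks A the difference was -0.39 for Slc6a8 and -0.42 for Slc35a1. None of these differences passed the threshold. Between intermittent hypoxia and normoxia, Slc39a10 differed by 0.88 (SE 0.243, adjusted p = 0.85), Slc44a2 by -0.51 (SE 0.142, adjusted p = 0.85), Slc35a4 by -0.35 (SE 0.151, adjusted p = 0.992) and Slc31a2 by 0.25 (SE 0.124, adjusted p = 0.992). Between intermittent and constant hypoxia, the differences with the smallest p in each direction were -0.71 for Slc44a2 (SE 0.142, adjusted p = 0.159), 0.84 for Slc4a2 (SE 0.213, adjusted p = 0.297), 0.66 for Slc35a1 and -0.38 for Slc22a7 (adjusted p = 0.372 each). The value for Slc35a1 was 0.42 without constant hypoxia 4 weeks A. Slc4a2 has 2 probes, and probe 15546 had no value at 2 or 4 weeks of intermittent hypoxia. In constant and intermittent hypoxia, probe 15220 averaged -0.23 and 0.25, and probe 15546 averaged -0.70 and -0.21. The part of this change of probes in the difference of 0.84 was not tested. Leaving out constant hypoxia 4 weeks B leaves array A alone at 4 weeks and assumes that it varies like the other groups. Some carriers then passed for constant hypoxia minus normoxia and for intermittent minus constant hypoxia. The share of all features that passed in that run is not given here. Without intermittent hypoxia 2 weeks A, 1 carrier passed for intermittent minus constant hypoxia.

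**Figure D4:**
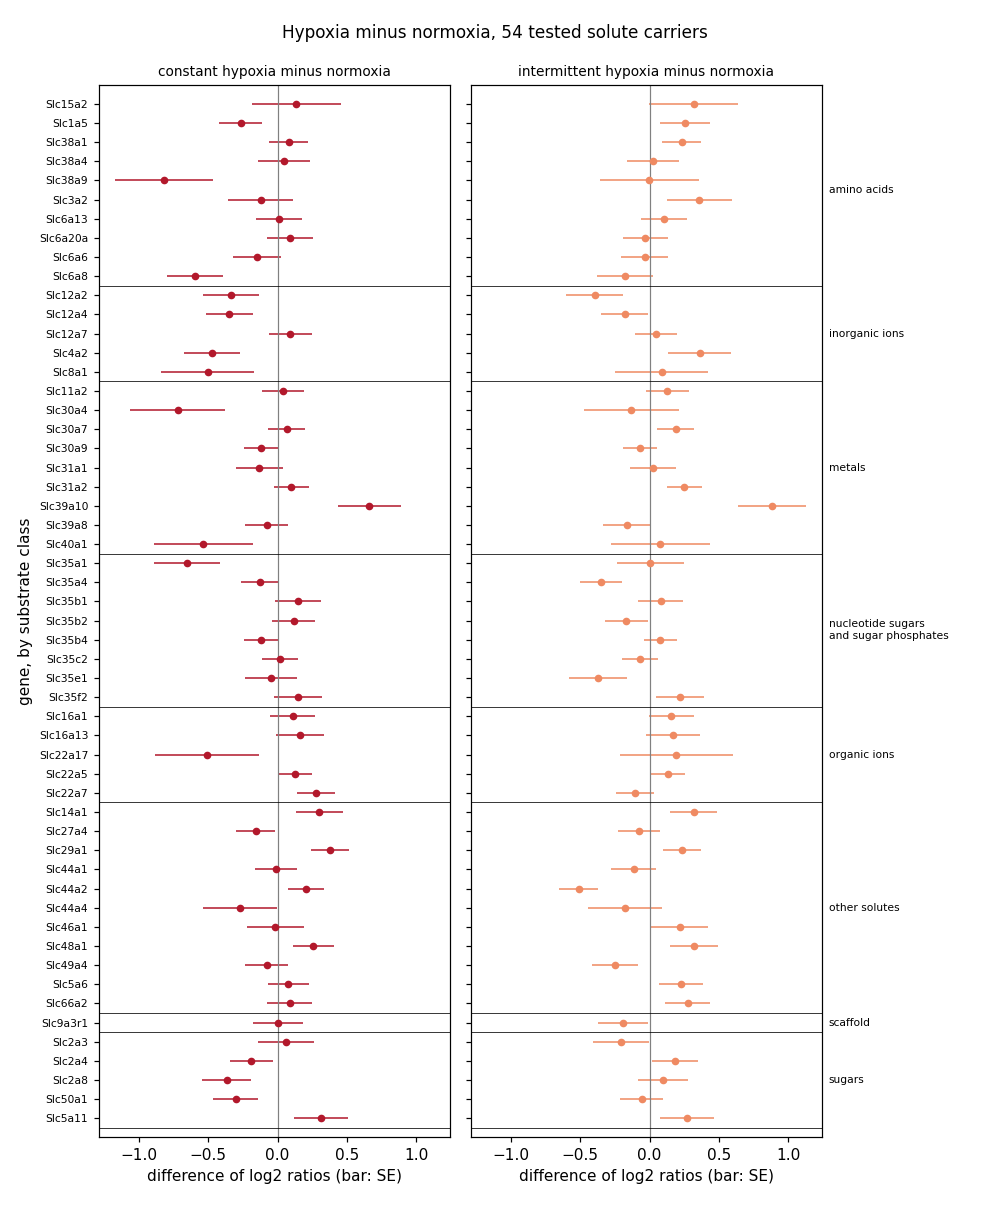
Difference of mean log2 ratios with its SE for the 54 tested carriers, by substrate class down the page, for constant hypoxia minus normoxia (left) and intermittent hypoxia minus normoxia (right). Most points lie close to 0, Slc39a10 lies at 0.66 and 0.88, and none of the 54 genes passed the adjusted threshold in either panel.

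The change with age was asked as 4 weeks minus 1 week in each condition. No carrier passed in constant hypoxia (0 of 54, background 0.0%), in intermittent hypoxia (0 of 54, background 0.0%) or in normoxia (0 of 54, background 0.0%). At an unadjusted p under 0.05 there were 9 carriers in constant hypoxia (9.41% of features), 0 in intermittent hypoxia (2.65%) and 1 in normoxia (8.44%). The median SE of these differences was 0.293.

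Slc2a4 had the smallest p of the carriers in both constant hypoxia and normoxia. Its ratios were -1.47 and -0.97 at 4 weeks, against -0.14 and -0.51 at 1 week, of constant hypoxia, a difference of -0.90 (SE 0.270, adjusted p = 0.437). In normoxia they were -1.08 and -0.93 at 4 weeks, against -0.47 and 0.20 at 1 week, a difference of -0.87 (SE 0.270, adjusted p = 0.423). In intermittent hypoxia they were -0.096 and 0.091 at 4 weeks, against -0.37 and -0.19 at 1 week. The age change in intermittent hypoxia minus that in normoxia came to 1.15 (SE 0.382, adjusted p = 0.512), which did not pass.

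Other carriers with the smallest p for age in each direction were Slc39a10 at 1.17, Slc9a3r1, the scaffold that anchors apical carriers, at 0.99 and Slc35a1 at -1.21 in constant hypoxia (adjusted p = 0.437 each). Without constant hypoxia 4 weeks A, Slc35a1 came to -0.50. In normoxia they were the glucose carrier Slc2a3 at 0.65 and Slc12a4 at 0.51 (adjusted p = 0.641 each), with Slc35b4 at -0.44 (adjusted p = 0.59). In intermittent hypoxia they were Slc35a1 at 0.66, Slc6a8 at 0.66, Slc22a7 at -0.42 and Slc35a4 at -0.40 (adjusted p = 0.999 each). Slc22a7 measured -0.26 and -0.31 at 4 weeks of intermittent hypoxia, against 0.68 and 0.75 in constant hypoxia and 0.28 and 0.69 in normoxia at that age. The differences between age changes gave 0 of 54 carriers for constant hypoxia minus normoxia (background 0.0%, with 1 carrier and 3.32% of features at an unadjusted p under 0.05) and 0 of 54 for intermittent hypoxia minus normoxia (background 0.0%, with 4 carriers and 8.47% of features at that unadjusted level). In the first, Slc9a3r1 stood at 1.39, Slc30a7, a zinc carrier of the Golgi, at 0.58, Slc4a2 at -0.96 and Slc8a1 at -1.40 (adjusted p = 1.0 each). Without constant hypoxia 4 weeks A these came to 1.31 for Slc9a3r1, 0.35 for Slc30a7, -0.48 for Slc4a2 and -0.0037 for Slc8a1, so the value for Slc8a1 came from that array. In the second, after Slc2a4, Slc6a8 stood at 1.22 (adjusted p = 0.539), Slc2a3 at -1.06 and Slc22a7 at -0.70 (adjusted p = 0.585 each). Without constant hypoxia 4 weeks B, some carriers passed for age in constant hypoxia and for its difference from normoxia. The share of all features that passed in that run is not given here.

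Within single durations, 1 carrier passed in any of the 6 comparisons of a hypoxia regime with normoxia, against 0.24% of features, or 0.188% for positive differences. An unadjusted p under 0.05 in any of them was found for 22 carriers, against 35.1% of features. The 1 carrier was Slc39a10 for intermittent hypoxia minus normoxia at 2 weeks, at 3.22 (SE 0.517, adjusted p = 0.0238). That value rests on 1 array a side, 2.23 on intermittent hypoxia 2 weeks B and -0.99 on normoxia 2 weeks A, with no value on the other arrays of both groups. It did not pass without normoxia 1 week A or normoxia 2 weeks B, and there is no value without either array it rests on. In the same comparison Slc44a2 measured -1.58 in intermittent hypoxia, against 0.0041 and -0.39 in normoxia, a difference of -1.38 (SE 0.279, adjusted p = 0.0652). At 4 weeks Slc2a4 differed by 1.01 (adjusted p = 0.488) and Slc22a7 by -0.77 (adjusted p = 0.516) between intermittent hypoxia and normoxia. The count for single durations was 5 without intermittent hypoxia 2 weeks A, 7 without both arrays of conflicting labels and 12 without constant hypoxia 4 weeks B.

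**Figure D5:**
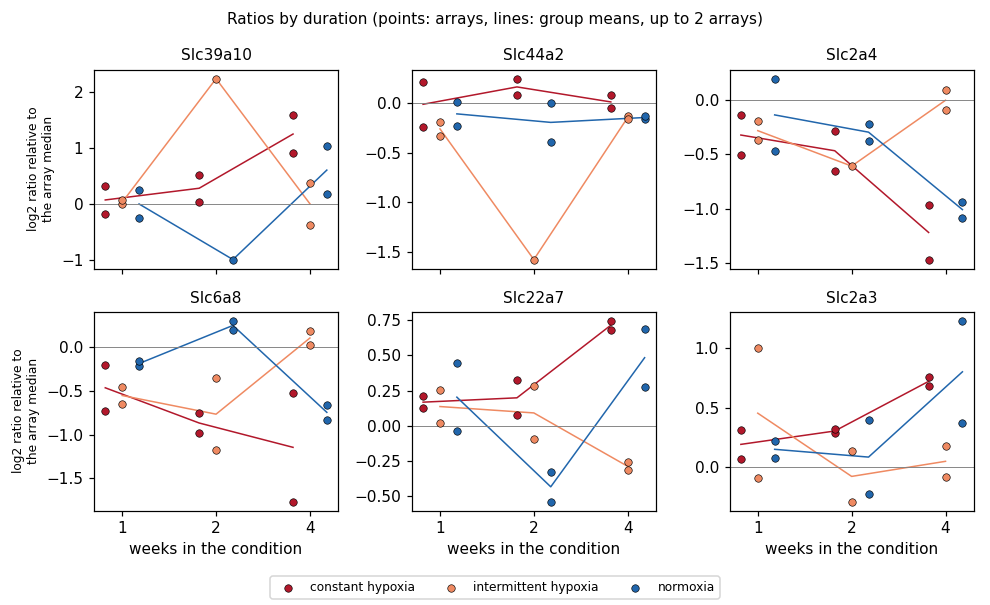
Log2 ratio relative to the array median at 1, 2 and 4 weeks for 6 carriers, with arrays as points and group means as lines, in constant hypoxia, intermittent hypoxia and normoxia. Slc39a10 and Slc44a2 stand out at 2 weeks of intermittent hypoxia on 1 array (2.23 and -1.58), and Slc2a4 is lowest at 4 weeks in constant hypoxia and normoxia.

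By substrate, amino acid and peptide carriers numbered 16, of which 10 were tested. Their median ratios over arrays ran from -0.53 for Slc6a13 to 0.36 for Slc38a4, a sodium-coupled neutral amino acid carrier that was positive on 17 of 18 arrays. The highest single value was 1.65 for Slc3a2, the heavy chain that brings several amino acid exchangers to the cell surface, on intermittent hypoxia 2 weeks B. Slc15a2, which reabsorbs small peptides, ranged from -1.27 on normoxia 1 week B to 1.07 on intermittent hypoxia 2 weeks B. Slc7a6, a light chain for basic and neutral amino acids, had 10 values, none of them in constant hypoxia, and reached -1.94 on normoxia 2 weeks B.

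Metal carriers numbered 12, with 9 tested. Slc30a4 had the lowest median, -0.74, and was negative on 17 of 18 arrays. Slc11a2, the proton-coupled iron importer DMT1, kept within -0.33 and 0.53, and Slc31a1, the copper importer of the cell surface, within -0.60 and 0.58. Slc40a1 was at -2.58 on constant hypoxia 4 weeks A and between -1.08 and 0.40 elsewhere. The zinc carriers therefore held both ends of the class, with Slc30a4 at the low end and Slc39a10, at a median of 0.21, at the high end among genes tested.

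Inorganic ion carriers numbered 9, with 5 tested, and the medians ran from -0.80 for Slc8a1 to 0.35 for Slc26a10, an anion exchanger family member with 11 values. Slc12a7, a potassium/chloride cotransporter, had a median of 0.21 and was positive on 12 of 18 arrays. Sugar carriers numbered 7, with 5 tested. Slc50a1 and Slc2a4 both had a median of -0.37 and were negative on 15 of 17 arrays, whereas Slc2a3 had 0.26 and Slc5a11, a sodium-coupled inositol carrier, had 0.23. Slc2a8, an intracellular glucose carrier, lay at -0.020 with 1 low array, -1.19 on constant hypoxia 4 weeks A.

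Organic ion carriers numbered 7, with 5 tested. The monocarboxylate carrier Slc16a1, which moves lactate and pyruvate with a proton, had a median of 0.21, while Slc22a17 had -0.79 and Slc22a5 -0.34. The 12 nucleotide sugar and sugar phosphate carriers were all assigned to internal membranes by family, and 8 were tested. Slc35b4, Slc35b1 and Slc35a4 had the highest medians at 0.41, 0.37 and 0.33, and Slc35b1 was positive on 16 of 17 arrays. Slc35e3 and Slc35a1 had the lowest at -0.39 and -0.38. Carriers of other solutes numbered 15, with 11 tested, and ranged in median from -0.28 for Slc29a1 to 0.37 for Slc49a4. Slc46a1, the proton-coupled folate carrier, was positive on 15 of 17 arrays and peaked at 1.47 on intermittent hypoxia 2 weeks B.

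The textbook targets of hypoxia-inducible factors were among the genes with too few values for a test. Slc2a1 measured -0.012 and 0.022 at 1 week, -0.42 and -0.092 at 2 weeks and 0.40 and -0.087 at 4 weeks of constant hypoxia, and 0.64, 0.37 and 0.20 on 3 intermittent hypoxia arrays, against 0.078 on the only normoxia array with a value. Slc16a3 measured between -0.59 and 0.72 on 6 constant hypoxia arrays and was 0.36, 0.23 and -0.35 on 3 intermittent hypoxia arrays, against 0.35, 0.15 and -0.30 on 3 normoxia arrays. For Slc16a3 the conditions overlapped. The phosphate carrier Slc20a1 measured between -0.54 and 0.27 on 6 constant hypoxia arrays, between -0.61 and 0.12 on 3 intermittent hypoxia arrays and between -0.90 and 0.36 on 3 normoxia arrays. Slc7a8, the light chain of a neutral amino acid exchanger of the proximal tubule, lay between -0.78 and 0.099 on 6 constant hypoxia arrays, at 0.73 and 0.36 on 2 intermittent hypoxia arrays and between -0.88 and 0.36 on 5 normoxia arrays. These ratios say nothing on whether the transcripts rose in hypoxia, since a rise shared by both animals cancels.

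Carriers that define nephron segments were thinly measured. Of 33 listed kidney transporters, 5 were tested: Slc22a7, Slc3a2, Slc16a1, Slc40a1 and Slc11a2, of which Slc22a7 and Slc40a1, or 2 of 5, passed against 0 in constant hypoxia, where 16.4% of all features did. Neither passed without constant hypoxia 4 weeks A. Of 6 listed carriers known for sex-biased levels in rodent kidney, Slc22a7 alone was tested, and its mean was 0.36 in constant hypoxia, -0.019 in intermittent hypoxia and 0.086 in normoxia. Of 30 listed transport partners, 11 were tested, with 7 above and 4 below 0 in constant hypoxia and 1 past the threshold in each direction there. The lowest was Sgk1, a kinase that keeps sodium channels and carriers at the surface, with means of -0.74 in constant hypoxia, -0.39 in intermittent hypoxia and -0.80 in normoxia. The highest in constant hypoxia and normoxia was Slco3a1, an organic anion transporter, with means of 0.61 in constant hypoxia, 0.014 in intermittent hypoxia and 0.54 in normoxia.

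Kidney markers were in part below the filter. A ratio between the animals of an array shows where a marker differed between them and cannot check which tissue was sampled. Tested were 2 of 8 proximal tubule markers (Lrp2 and Miox), 1 of 6 of the loop and distal nephron, 0 of 5 of the collecting duct, 2 of 5 of podocytes, 3 of 5 of endothelium, 2 of 8 of immune cells and 2 of 8 of neighbouring adrenal and liver. The mean ratio of the proximal tubule markers ran from -0.25 to 0.38 over constant hypoxia arrays, from -0.47 to -0.0066 over intermittent hypoxia arrays and from -0.45 to 0.26 over normoxia arrays. Of 11 erythroid markers 2 were tested, and their mean ran from -2.04 to -0.057 over constant hypoxia arrays, from -1.20 to 0.30 over intermittent hypoxia arrays and from -0.61 to 0.13 over normoxia arrays. The -0.057 is Slc4a1 alone, since Hbb-b1 had no value on constant hypoxia 1 week A. With both markers the highest mean in constant hypoxia was -0.44, on 1 week B. The lowest erythroid mean was that of constant hypoxia 4 weeks A, the array with the lowest Slc8a1, Slc30a4 and Slc22a17. It came from the globin gene Hbb-b1 at -4.06, while Slc4a1 was at -0.010, its highest value in constant hypoxia. The mean of the adrenal and liver markers Hsd3b1 and Apoa1 ran from -1.43 to 1.16 over constant hypoxia arrays, from -0.73 to 0.20 over intermittent hypoxia arrays and from -0.95 to 2.88 over normoxia arrays. Its lowest value was also on constant hypoxia 4 weeks A, and its highest was on normoxia 1 week B, where Apoa1 reached 4.66. The part of these markers in the carriers' values was not tested. In these bulk samples of whole kidney, fewer cells of a type and less RNA per cell cannot be told apart. Where a carrier had several probes these often differed: over the 11 genes with 2 probes on at least 9 arrays, the correlation between probes over arrays ran from -0.289 for Slc38a1 to 0.612 for Slc6a8.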

How the data were processed

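Kidney cDNA was measured on 18 two-channel arrays, 2 in each of 9 groups. Per the labels' protocols, 60 ug of total RNA extracted in Trizol was labelled per channel by direct incorporation of Cy5 or Cy3. The deposited table holds a log2 ratio for each probe on each array, with the base inferred from the range of the values. The sources used here do not say how the authors corrected, filtered and scaled spots. Intensities were not used here, so signal over background behind a value is unknown, and the number of arrays limits the precision.

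Probes were named through the platform annotation: 9604 of 16128 had 1 symbol, 213 had several and 6311 had none. Of the probes with several symbols, 3 name an Slc gene and were left out. Probes of a gene were averaged (15 of the 79 carriers have several), and a single fit took features measured on 15 or more arrays that had no group without a value. Each array was centred on its median over these 5843 features. The 9 group means were fitted by least squares and moderated with limma 3.58.1 in R 4.3.3 (no trend, prior degrees of freedom 5.79), with Benjamini-Hochberg adjustment over all 5843 features and a threshold of 0.05. P values are two-sided. The code was tested on simulated data. Where an array lacked a value, its group mean came from the other array.

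Arrays were grouped by title. Per the labels, arrays of a group carry different animals, apart from the conflicts named above. Arrays were not treated as paired by the letters A and B. Over 36 pairs of groups the correlation of the A minus B differences ran from -0.349 to 0.427, with a median of 0.005 and 8 pairs over 0.1. Whether the letters pair arrays in part of the groups was not tested. Substrate classes were assigned by gene family, and a few were moved by symbol after the files were read. The members and lists were chosen with earlier results of these data known. Genes named in a comparison are up to 8 passing carriers in each direction by smallest p, filled to 2. In a class they are those with most values and the lowest and highest medians, and tested kidney transporters may be named too. Genes outside this rule (Slc2a1, Slc16a3, Slc20a1, Slc7a8 and Slc38a9 among them) were chosen after their values were seen. Promoters came from RefSeq. Alternatives were other centrings, filters, probe choices, scaling, moderation, a replicate block and leaving out arrays. In a further alternative, a running median over 150 probes with a value on either side was removed.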

Additional observations from a re-analysis of the deposited data

Results flagged for a closer look

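In 7 of 69 sets of values (1 gene in 1 condition, of the genes named in the comparisons), 1 array lay apart from the others by Dixon's criterion for a single far value. Chance gives about 1 in 20 for unselected and independent values. These genes were picked by p value on the same arrays, so 7 of 69 cannot be judged against that share. Of these 7, 3 fell on constant hypoxia 4 weeks A. There Slc8a1 was at -3.66, with the other 5 constant hypoxia arrays between -1.06 and -0.50. Slc22a17 was at -3.58 on that array, with the others between -1.03 and -0.066, and Slc30a4 was at -3.41, with the others between -1.26 and -0.25. Running medians over neighbouring probes on that array were -2.54, -2.48 and -2.35 beside these 3 genes, and their part in the values was not tested further than by subtraction.

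Slc35b1 stood at 0.88 on constant hypoxia 4 weeks B, with the others between 0.25 and 0.40. Slc22a5 stood at -0.082 on constant hypoxia 2 weeks A, with the others between -0.43 and -0.31, so that the steadiest carrier also had 1 array near the median. Slc2a3 stood at 1.00 on intermittent hypoxia 1 week B, with the others between -0.29 and 0.18. Slc44a2 stood at -1.58 on intermittent hypoxia 2 weeks B, with the other 4 values between -0.33 and -0.13.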

How the results depend on the processing

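Counts of carriers past the threshold depended on centring, on single arrays and on the trend along probe numbers. Counts from the alternative runs stand without the share of all features past the threshold in the same run. They therefore say nothing particular to carriers. Values as deposited keep the array medians, which ran from -1.15 to -0.19 on the constant hypoxia arrays. On the values as deposited, 53 carriers passed for the constant hypoxia mean (18 as reported), 52 for constant hypoxia minus normoxia (0), 52 for intermittent minus constant hypoxia (0) and 54 within single durations (1). There the constant hypoxia mean turned to -0.36 for Slc35b1, -0.43 for Slc22a7, -0.45 for Slc35a4, -0.48 for Slc35b4 and -0.26 for Slc39a10. Constant hypoxia minus normoxia turned to -0.13 for Slc39a10 and -0.40 for Slc29a1, and intermittent minus constant hypoxia to 0.025 for Slc44a2 and 0.38 for Slc22a7. With the running median removed, 2 passed for the constant hypoxia mean, 1 for intermittent minus constant hypoxia and 2 within single durations, and the age change of Slc4a2 in constant hypoxia minus that in normoxia turned to 0.036. With a value on all 18 arrays required, which tests fewer genes, the counts were 10 for constant hypoxia, 1 for intermittent hypoxia (4 as reported) and 0 within single durations. Scaling arrays to a common spread gave 9 for intermittent hypoxia and 0 within single durations, and the unmoderated fit gave 5 for normoxia (8 as reported) and 0 within single durations. Without both arrays of conflicting labels, 13 passed for intermittent hypoxia and 7 within single durations. The letter as a replicate block gave 0 within single durations, 18 for constant hypoxia, 3 for intermittent hypoxia and 8 for normoxia, with 0 in the condition and age differences. Where no construction is named, the cause was not tested.

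Leaving out each array in turn gave 0 to 18 carriers for the constant hypoxia mean, 1 to 11 for intermittent hypoxia, 0 to 12 for normoxia, 0 to 10 for constant hypoxia minus normoxia, 0 to 10 for intermittent minus constant hypoxia, 0 to 12 for age in constant hypoxia, 0 to 7 for its difference from normoxia and 0 to 12 within single durations. For intermittent hypoxia minus normoxia, for age in intermittent hypoxia and normoxia, and for the difference of those age changes, every alternative run gave 0. Over the named genes, 1466 recomputed values kept direction and side of the threshold, 122 fell short of it, 19 passed it newly and 10 changed sign. All 122 belong to results that had passed as reported. Many named results had not passed and could not fall short, so the pooled counts do not measure how stable the passing calls are.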
